A study of Mus musculus with 14 samples.

Results

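The genes described here are those of the insulin-like growth factor (IGF) axis in the mouse esophagus, which comprise the ligand gene Igf1, the receptor genes Igf1r and Igf2r, and the binding protein genes Igfbp2 to Igfbp7. They were found by their symbols, and these 9 genes were present among the 55291 genes of every count table. Bulk RNA sequencing had been carried out on esophageal epithelium and stroma from 9 wild type C57BL/6 mice without treatment, transgene or deleted gene. Epithelium came from 5 aged mice (18 months or older; O1, O2, O3, OF5 and OM8) and 4 young mice (4 months or younger; Y1, Y3, YF5 and YM4). Stroma came from 3 of the aged mice (O1, O2, O3) and 2 of the young mice (Y1, Y3), so both layers were measured in 5 mice. Each sample is named by its mouse and layer.

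IGF1 is a small secreted hormone made mainly by the liver under growth hormone control and also within many tissues. It signals through the receptor tyrosine kinase IGF1R to the PI3K, AKT and mTOR pathway, which drives growth and restrains the FOXO transcription factors, whereas IGF2R binds IGF2 and carries it to the lysosome without signaling in this way. The IGF binding proteins hold IGFs in the blood and in the matrix around cells, prolong their life and limit or deliver them to the receptor until proteases cleave the carrier. In squamous epithelia such as skin, IGF1 is known as a product of cells beneath the epithelium that acts on the keratinocytes above.

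All 9 genes are protein coding. In the GRCm38 annotation Igf1 lies at chr10:87858265-87937042 on the plus strand, Igf1r at chr7:67952827-68233668 on the plus strand and Igf2r at chr17:12682406-12769664 on the minus strand. Igfbp3 lies at chr11:7206086-7213923 (minus) and Igfbp4 on the same chromosome at chr11:99041244-99054392 (plus). Igfbp6 lies at chr15:102144362-102149511 (plus) and Igfbp7 at chr5:77349240-77408041 (minus). Igfbp2, at chr1:72824503-72852474 on the plus strand, and Igfbp5, at chr1:72857932-72874884 on the minus strand, are neighbors that point toward each other, with 5457 bases and 0 annotated genes between their ends. This pair is singled out because its members had opposite layer patterns, and the RefSeq promoter windows (GRCm38.p6, from 250 bases before to 50 bases after the start) are therefore shown. Capitals mark the GC box GGGCGG on either strand and the E box CANNTG. The Igfbp2 window covers chr1:72824230-72824529 on the plus strand and the Igfbp5 window chr1:72874816-72875115 on the minus strand, each written 5′ to 3′.
Igfbp2: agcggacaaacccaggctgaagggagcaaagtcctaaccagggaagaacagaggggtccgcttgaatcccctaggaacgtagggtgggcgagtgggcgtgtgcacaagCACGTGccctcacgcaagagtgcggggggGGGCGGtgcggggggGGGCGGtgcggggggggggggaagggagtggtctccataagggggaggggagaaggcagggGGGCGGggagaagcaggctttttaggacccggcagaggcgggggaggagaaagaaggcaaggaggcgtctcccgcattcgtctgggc
Igfbp5: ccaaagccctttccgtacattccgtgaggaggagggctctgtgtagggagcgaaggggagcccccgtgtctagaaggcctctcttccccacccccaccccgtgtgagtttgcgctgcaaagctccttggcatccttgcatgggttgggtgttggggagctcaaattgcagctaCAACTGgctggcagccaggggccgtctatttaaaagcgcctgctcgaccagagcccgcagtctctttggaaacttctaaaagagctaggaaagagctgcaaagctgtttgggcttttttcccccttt
The Igfbp2 window held 3 GC boxes, 1 E box and 18 CpG dinucleotides, and the Igfbp5 window held 0 GC boxes, 1 E box and 10 CpG dinucleotides. Over 32851 RefSeq promoter windows of the same length, 35.7% held a GC box and 72.3% held an E box, and the median number of CpG dinucleotides was 7. The search used both strands, and the marked motifs do not overlap. RefSeq holds a second Igfbp2 start, whose window (chr1:72825137-72825436) had 0 GC boxes and 2 E boxes. Among other genes of the axis that were lower in epithelium, the Igfbp7 window held 4 GC boxes and 33 CpG dinucleotides. That of Igf2r held 3 and 34, and that of Igf1r 2 and 48. The windows of Igf1, Igfbp4 and Igfbp6 held 0 GC boxes. A link between these motifs and the layer was not tested.

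Values are given as normalized counts, in CPM after TMM scaling of the library sizes, and a difference between groups is called when the adjusted p of the edgeR quasi-likelihood test is under 0.05. The layers matched their labels, since all 6 basal and all 6 differentiated epithelial markers were called higher in epithelium, and the summed differentiated markers ranged from 17178 to 53300 in epithelium and from 47.2 to 445 in stroma. The stroma, for which no dissection is described in the sources used here, held skeletal muscle transcripts: the 6 muscle markers summed to between 13034 and 19454 in stroma and averaged 1.10% of that level in epithelium. Fibroblast markers averaged 61.7% and smooth muscle markers 60.3% of the stromal level in epithelium, adipocyte markers 0.155%, and endothelial markers 26.3%. In these bulk samples, fewer cells of a type and less RNA per cell cannot be told apart. The 4 samples whose mouse code holds a sex letter (OF5, OM8, YF5 and YM4), all epithelium, stand apart. Their totals were 8217516 to 9399448 counts, of which 63.9 to 73.9% fell on the repeated locus CT010467.1. The other epithelial samples had 16477424 to 21867101 counts with 10.4 to 23.3% on that locus, and the stromal samples had 13257833 to 15644580 counts with 1.47 to 1.88%.

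To find where each part of the axis is expressed, the 9 epithelial samples were compared with the 5 stromal samples. Of the 9 genes, 1 (Igfbp2) was called higher in epithelium, against a background of 26.1% of the 16791 genes tested, and 7 were called lower, against a background of 30.1%. The exception was Igfbp3, which was not called. The same 7 genes had no epithelial sample that reached the lowest stromal sample, a pattern met by 16.9% of the genes tested. The layers of Igfbp2 did not overlap either. It follows from these gaps that, in 5 of the 5 mice with both layers, each of the 7 was lower in epithelium and Igfbp2 higher. The count of mice is therefore no separate support. In the 10 samples of those mice, without the mice whose code holds a sex letter, 1 gene was again called higher and 7 lower. That fit called 9400 of the 16713 genes tested, both directions together.

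**Figure D1:**
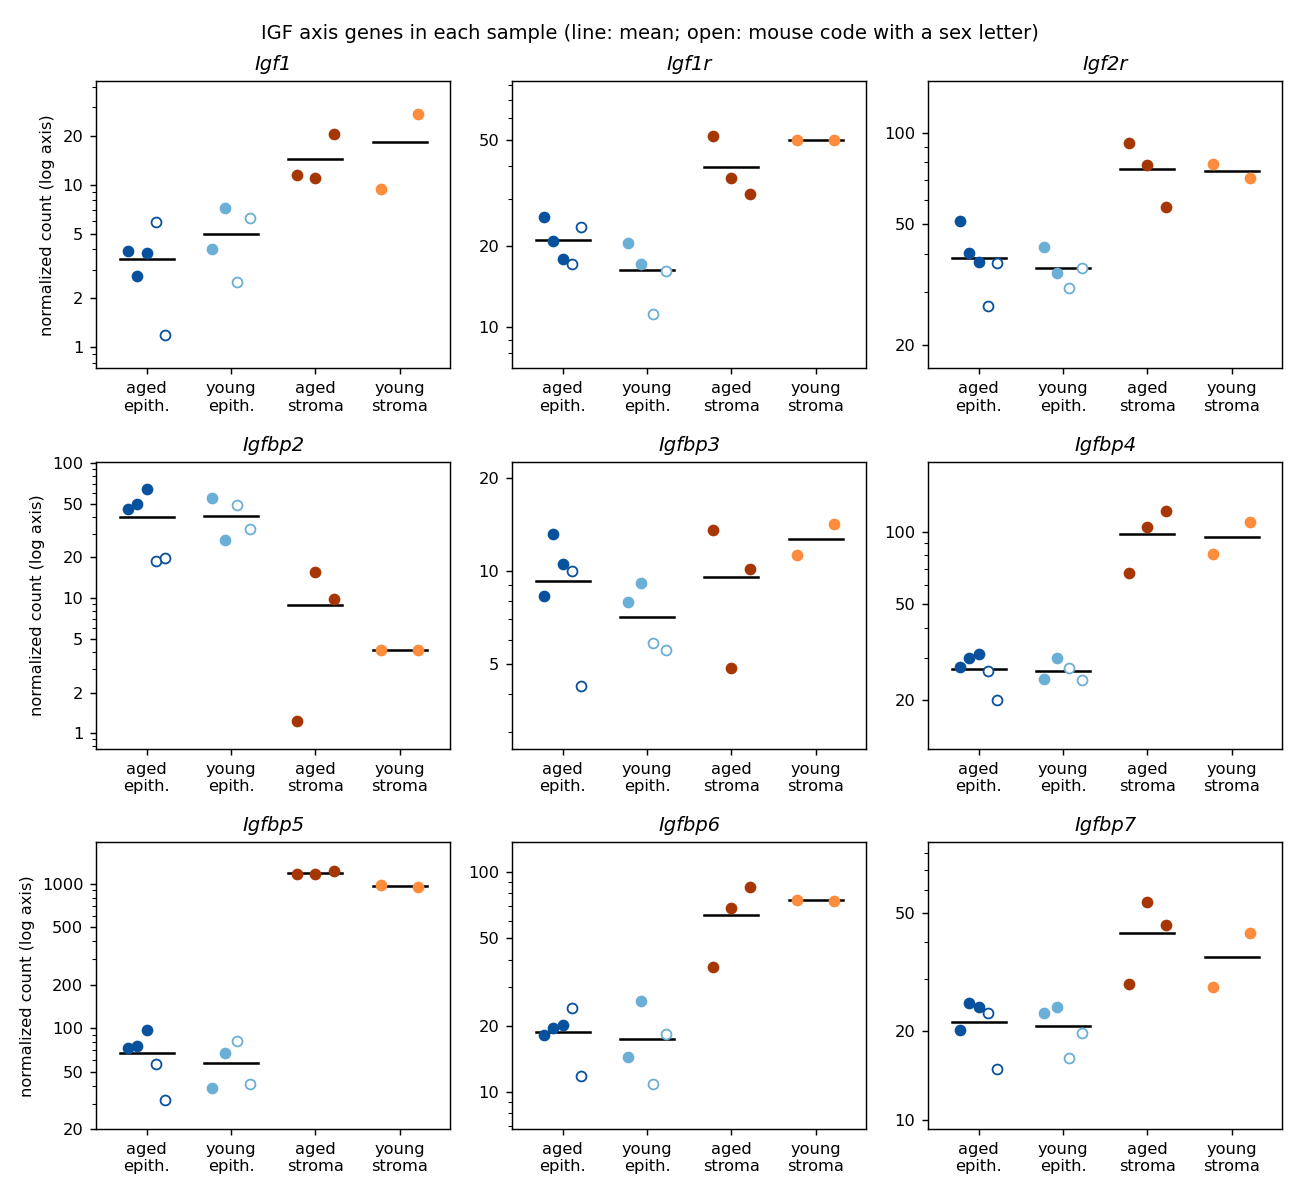
Normalized counts (log axis) of the 9 genes in each sample of the 4 groups, with 5 aged and 4 young epithelial and 3 aged and 2 young stromal samples; lines are group means and open circles are mice whose code holds a sex letter. Igfbp5 lies between 954 and 1213 in stroma and at or below 97.2 in epithelium, Igfbp2 runs the other way, and aged and young samples overlap in every panel but that of Igfbp5 in stroma.

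Igf1, the ligand gene, was low in epithelium. It measured 3.89, 2.73, 3.81, 5.86 and 1.18 normalized counts in aged epithelium (O1, O2, O3, OF5 and OM8) and 4.00, 7.23, 2.50 and 6.23 in young epithelium (Y1, Y3, YF5 and YM4). It measured 11.4, 11.0 and 20.5 in aged stroma (O1, O2 and O3) and 9.44 and 27.2 in young stroma (Y1 and Y3). Every stromal sample was above every epithelial sample, and within the stroma O3 and Y3 stood above the other samples. The mean was 4.16 ± 1.95 (SD, n = 9) in epithelium and 15.9 ± 7.68 (SD, n = 5) in stroma, a log2 fold change of -1.93 (SE 0.32, edgeR adjusted p = 3.28e-05). The Igf1 values of OM8 and YF5 rest on 5 and 6 counts, while the stromal values rest on 183 to 691 counts. The summed adipocyte markers were also highest in the stroma of Y3 (537) and O3 (234), against 103 to 148 in the other stromal samples, and were at most 1.18 in epithelium. The summed endothelial markers were highest in the same stromal samples, O3 (105) and Y3 (83.6), against 42.1 to 69.3 in the others. Other lists did not rank this way. In Y3 stroma the summed fibroblast (705), macrophage (64.9) and pericyte (137) markers were below those of O2 stroma (873, 79.6 and 191). O3 had the highest stromal fibroblast (1031) and macrophage (84.8) sums. Adipose tissue is a known source of IGF1, and the part of any of these cell types in the Igf1 difference was not tested.

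The receptor genes were detected in both layers and were lower in epithelium. Igf1r, which encodes the signaling receptor for IGF1, had a lowest, median and highest value of 11.3, 17.9 and 25.6 in epithelium. In stroma it measured 51.6, 35.9 and 31.4 in the aged mice O1, O2 and O3 and 49.9 and 49.8 in the young mice Y1 and Y3. The means were 19.0 ± 4.28 (SD, n = 9) and 43.7 ± 9.35 (SD, n = 5), and the log2 fold change was -1.19 (SE 0.18, edgeR adjusted p = 8.67e-06). Igf2r, whose product clears IGF2, ranged from 26.9 to 51.3 (median 37.2) in epithelium and measured 92.6, 78.5 and 57.0 in aged and 78.9 and 70.8 in young stroma. Its log2 fold change was -1.005 (SE 0.16, edgeR adjusted p = 1.63e-05). For both receptors the layers did not overlap, and the stromal mean was 2.31 times the epithelial mean for Igf1r and 2.02 times for Igf2r. The long noncoding gene Airn lies antisense to Igf2r, and Igf1os antisense to Igf1, but neither shares exon bases with its partner in the annotation.

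**Figure D2:**
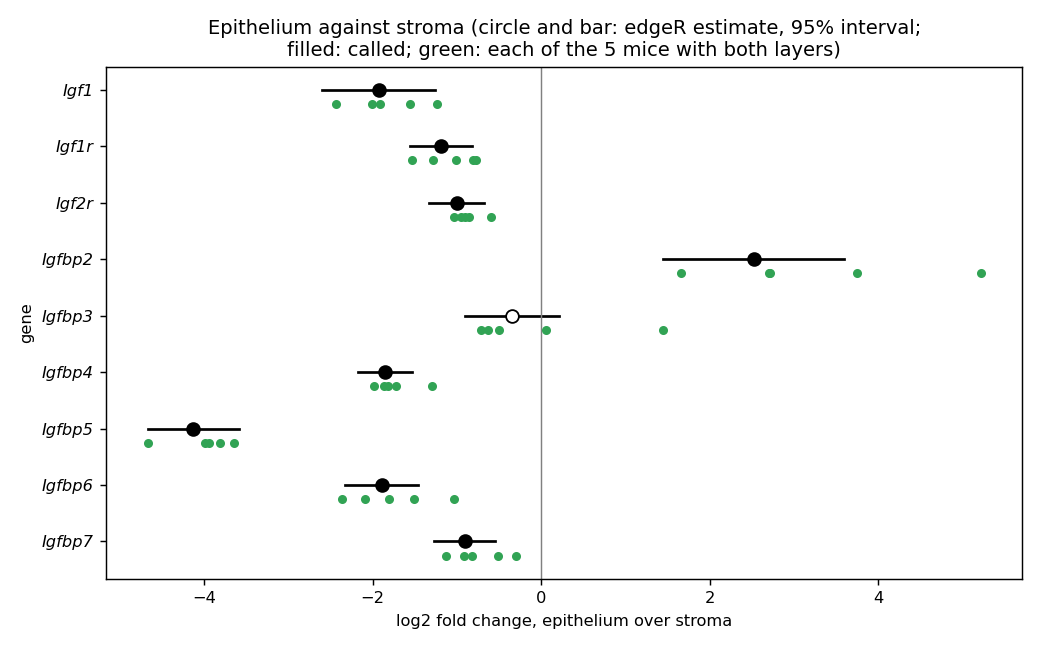
Log2 fold change of epithelium over stroma for the 9 genes (black circles, edgeR estimate over 14 samples; bars, 95% interval; filled, called) and for each of the 5 mice with both layers (green points). The interval of Igfbp2 lies above 0, that of Igfbp3 crosses 0, and those of the other 7 genes lie below 0, with Igfbp5 at -4.13.

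The binding protein genes divided by layer. Igfbp2, which encodes a secreted carrier of IGF1 and IGF2 with an integrin-binding motif, was the member higher in epithelium. It measured 45.5, 49.3, 64.1, 18.9 and 19.8 in aged epithelium (O1, O2, O3, OF5 and OM8) and 55.2, 26.9, 48.8 and 32.5 in young epithelium (Y1, Y3, YF5 and YM4). It measured 1.23, 15.7 and 9.87 in aged stroma (O1, O2 and O3) and 4.13 and 4.10 in young stroma. The layers did not overlap, although O2 stroma came close to the lowest epithelial samples, OF5 and OM8. Of all genes tested, 26.1% were called higher in epithelium, and the share without overlap in this direction is not given here. The means were 40.1 ± 16.1 (SD, n = 9) and 6.99 ± 5.77 (SD, n = 5), and the log2 fold change was 2.52 (SE 0.50, edgeR adjusted p = 0.000532), with single mice between 1.66 (O2) and 5.22 (O1). In the stroma, Krt5, a basal keratinocyte keratin, measured 14.5 in O2 and 13.9 in O3, the samples with the most Igfbp2, and 1.06 to 2.17 in the other 3 samples. The 6 basal markers together summed to 40.3 in O2, 63.5 in O3 and 14.9 to 20.5 in the other stromal samples. Among them, Sox2 had 0 counts in O2 stroma. Krt5 in epithelium ranged from 269 to 960. In O2 epithelium Krt5 was 866 and Igfbp2 49.3, and the part of epithelial RNA in the stromal Igfbp2 values was not tested.

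Igfbp5, the neighbor of Igfbp2, had the largest difference of the 9 genes. Its product binds to extracellular matrix and is known from muscle, bone and fibroblasts. In epithelium it measured 73.3, 75.5, 97.2, 56.2 and 31.8 in the aged mice O1, O2, O3, OF5 and OM8 and 38.4, 67.7, 81.7 and 41.2 in the young mice Y1, Y3, YF5 and YM4. In stroma it measured 1167, 1162 and 1213 in aged O1, O2 and O3 and 977 and 954 in young Y1 and Y3. The epithelial mean of 62.5 ± 22.1 (SD, n = 9) was 5.71% of the stromal mean of 1095 ± 120 (SD, n = 5), and the log2 fold change was -4.13 (SE 0.26, edgeR adjusted p = 4.36e-11). Every mouse with both layers had the difference, from -4.67 to -3.64. The skeletal muscle markers changed with the layer more strongly, with a median log2 fold change of -6.52 and 6 of 6 called lower, and their part in the Igfbp5 difference was not tested.

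Igfbp4, Igfbp6 and Igfbp7 were lower in epithelium by smaller amounts. Igfbp4, which encodes an IGF inhibitor that the protease PAPP-A cleaves, ranged from 20.03 to 31.1 (median 27.1) in epithelium and measured 67.6, 105 and 123 in aged and 81.1 and 110 in young stroma. Its log2 fold change was -1.86 (SE 0.15, edgeR adjusted p = 3.01e-09). Igfbp6, whose product prefers IGF2, ranged from 10.8 to 26.1 (median 18.3) in epithelium and measured 37.2, 68.3 and 85.6 in aged and 74.5 and 74.2 in young stroma. Its log2 fold change was -1.89 (SE 0.21, edgeR adjusted p = 1.52e-07). O1 stroma had the lowest Igfbp4 and Igfbp6 values of the layer and also the lowest summed fibroblast markers, 415 against 705 to 1031 in the other stromal samples. It also had the lowest summed endothelial (42.1) and Schwann cell (25.6) markers and the highest summed skeletal muscle markers (19454). O1 epithelium had a fibroblast sum of 412, with Igfbp4 at 27.6 and Igfbp6 at 18.2. The part of these cell types in the Igfbp4 and Igfbp6 values was not tested. Igfbp7, which encodes a matrix-bound relative with low affinity for IGFs, ranged from 14.8 to 24.8 (median 23.0) in epithelium and measured 28.8, 54.5 and 45.8 in aged and 28.2 and 42.8 in young stroma. Its log2 fold change was -0.91 (SE 0.18, edgeR adjusted p = 0.000179). Igfbp7 shares 85 exon bases with Polr2b on the opposite strand, and whether the counting used strand is not given in the sources used here. Polr2b itself measured 15.8 to 23.6 in epithelium and 11.2 to 18.0 in stroma.

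Igfbp3, which encodes the main IGF carrier of the blood, was the member whose layers overlapped. It measured 8.28, 13.2, 10.6, 9.99 and 4.24 in aged and 7.97, 9.16, 5.83 and 5.54 in young epithelium, in the mouse order used above. In stroma it measured 13.7, 4.85 and 10.1 in aged O1, O2 and O3 and 11.3 and 14.2 in young Y1 and Y3. O2 had the lowest stromal and the highest epithelial value, and O3 was close to even, at 10.6 in epithelium and 10.1 in stroma. The log2 fold change was -0.34 (95% interval -0.90 to 0.21, edgeR adjusted p = 0.283), and 3 of the 5 mice with both layers were lower in epithelium. The gene was called lower without mouse O2 (-0.66, edgeR adjusted p = 0.0300) and when at least 10 counts were required in every sample (-0.67, edgeR adjusted p = 0.0229).

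To compare the genes with each other, normalized counts were divided by the kilobases of exon of each gene. Per kb, the epithelial order ran from Igfbp2 (mean 21.7) through Igfbp7 (17.5), Igfbp6 (16.3), Igfbp5 (10.4), Igfbp4 (6.06), Igf2r (4.02), Igfbp3 (2.66) and Igf1r (1.13) to Igf1 (0.42). The ranges of every pair of neighbors in this order overlapped over the 9 samples. Within samples, Igfbp5 was above Igfbp4, Igfbp4 above Igf2r and Igf1r above Igf1 in 9 of 9, and the other steps held in 6 to 8 of 9. The stromal order ran from Igfbp5 (182) through Igfbp6 (61.1), Igfbp7 (33.1), Igfbp4 (22.01), Igf2r (8.12), Igfbp2 (3.79), Igfbp3 (3.46) and Igf1r (2.60) to Igf1 (1.61). In stroma, Igfbp5 (159 to 202) lay clear of Igfbp6 (33.4 to 77.0), and Igfbp4 (15.3 to 27.8) lay clear of Igf2r (6.12 to 9.95). The ranges of the other neighbors in the stromal order overlapped. Within samples, each step from Igfbp5 down to Igf2r held in 5 of 5, and the lower steps held in 4 of 5 except that of Igfbp2 over Igfbp3, which held in 2 of 5.

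The makeup of the binding protein pool therefore differed by layer, as a description per kb without a test. Igfbp2 made up 28.6% ± 8.3 (SD, n = 9) of the summed level of the 6 genes in epithelium and 1.17% ± 0.89 (SD, n = 5) in stroma. Igfbp5 made up 13.7% ± 3.19 in epithelium and 59.9% ± 6.67 in stroma. Neither share overlapped between layers, with Igfbp2 at 14.7 to 39.1% against 0.244 to 2.54% and Igfbp5 at 8.36 to 19.1% against 54.3 to 71.5%. Igfbp7 took 23.7% ± 3.10 in epithelium and 10.7% ± 2.17 in stroma, and Igfbp3 took 3.51% ± 0.75 and 1.17% ± 0.48. These larger epithelial shares are not higher levels, because a share depends on the other genes of the sum. Per kb, mean Igfbp7 was 17.5 in epithelium and 33.1 in stroma, and mean Igfbp3 was 2.66 and 3.46. The shares of Igfbp4 and Igfbp6 were closer in the layers, 8.27% and 7.15% for Igfbp4 and 22.2% and 19.9% for Igfbp6, with overlapping ranges. The summed level of the 6 genes was 74.7 ± 15.3 per kb (SD, n = 9) in epithelium and 306 ± 36.0 per kb (SD, n = 5) in stroma.

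**Figure D3:**
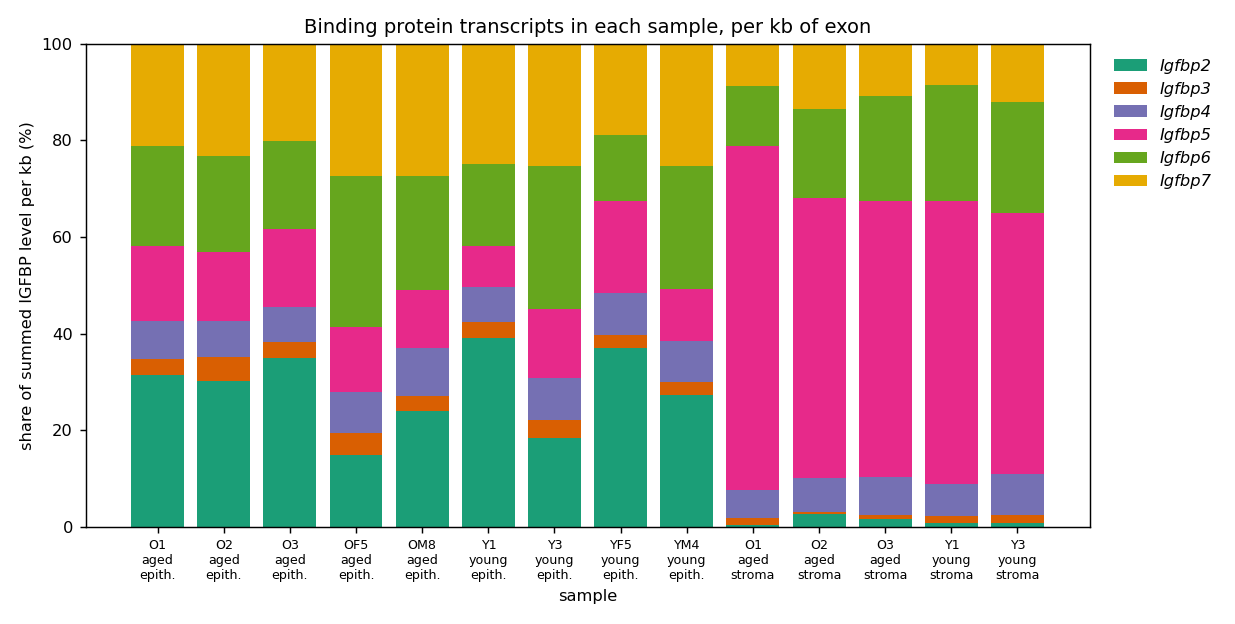
Share (%) of the summed binding protein level per kb that each of the 6 Igfbp genes takes in each of the 9 epithelial and 5 stromal samples. Igfbp2 takes 14.7 to 39.1% in epithelium and at most 2.54% in stroma, where Igfbp5 takes 54.3 to 71.5%.

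To ask whether the axis changes with age, aged and young samples were compared within each layer. In epithelium, 0 of the 9 genes were called by edgeR, where 0.0132% of the 15107 genes tested were called, and 0 of the 9 had an unadjusted p under 0.05 by edgeR or by DESeq2 over the 9 samples with the main filter. The aged and young samples overlapped for each gene. Igf1 averaged 3.49 in aged and 4.99 in young epithelium (log2 fold change -0.65, 95% interval -1.36 to 0.07, edgeR adjusted p = 0.999). Igf1r averaged 21.1 in aged and 16.3 in young epithelium (log2 fold change 0.31, 95% interval -0.04 to 0.65, edgeR adjusted p = 0.999). The Igf1 estimate ranged from -0.89 (without OF5) to -0.30 (without Y3) when each mouse was left out in turn. The summed fibroblast markers measured 280 to 454 in aged and 416 to 632 in young epithelium, and their part in the Igf1 values was not tested. Igf2r had a log2 fold change of 0.07 (95% interval -0.22 to 0.37), Igfbp4 of 0.00 (-0.28 to 0.29) and Igfbp7 of -0.02 (-0.33 to 0.30). The intervals were wider for Igfbp2 (-1.01 to 0.65), Igfbp3 (-0.17 to 0.76), Igfbp5 (-0.67 to 0.97) and Igfbp6 (-0.48 to 0.51).

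The form of the mouse code was a term of this fit, and the estimates within each form went different ways for Igfbp2 and Igfbp5. In the 5 mice with both layers, Igfbp2 had a log2 fold change of 0.36 and Igfbp5 of 0.62. In the 4 mice with a sex letter, Igfbp2 had a log2 fold change of -1.03 (edgeR adjusted p = 0.455) and Igfbp5 of -0.45. The difference between the forms was not tested. In those 4 mice Igfbp2 was 18.9 and 19.8 in aged OF5 and OM8 and 48.8 and 32.5 in young YF5 and YM4. Krt5 was likewise lower in OF5 (269) and OM8 (289) than in YF5 (325) and YM4 (555), and its part was not tested.

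In stroma, 3 aged samples were compared with 2 young samples. Of the 9 genes, 0 were called by edgeR, where 0% of the 21323 genes tested were called, and 0 had an unadjusted p under 0.05 by edgeR or DESeq2. Igfbp5 was the member whose aged (1162 to 1213) and young (954 to 977) stromal samples did not overlap, a pattern met in either direction by 20.6% of the genes tested. The 5 smooth muscle markers also separated these samples, summing to 816 to 2051 in aged and 303 to 600 in young stroma with 0 called. The basal epithelial markers did so too (20.5 to 63.5 aged, 14.9 to 15.4 young). The Schwann cell markers separated them the other way (25.6 to 75.4 aged, 84.3 to 109 young). Among aged stroma, O3 had the lowest smooth muscle sum (816) with the highest Igfbp5 (1213), and O2 the highest sum (2051) with the lowest Igfbp5 (1162). The part of these cell types in the Igfbp5 values was not tested. The Igfbp5 log2 fold change was 0.28 (95% interval -0.23 to 0.79, edgeR adjusted p = 0.99996). Igfbp2 had the largest estimate, 1.12, with the widest interval (-0.75 to 3.0004), and averaged 8.92 in aged and 4.11 in young stroma. Its estimate was 0.41 without mouse O2 and 1.64 without mouse O1 (edgeR adjusted p = 0.566). The 6 basal epithelial markers had a median log2 fold change of 1.27 in the same comparison with 0 called, but they did not move together. The keratins Krt5 (2.66), Krt14 (2.29) and Krt15 (3.16) had large estimates, whereas Trp63 (0.23), Col17a1 (0.25) and Sox2 (-0.81) did not follow them. Igf1 had an estimate of -0.36 (95% interval -1.43 to 0.70), which was 0.57 without mouse Y3. Igf1r averaged 39.6 in aged and 49.8 in young stroma, a log2 fold change of -0.34 (95% interval -0.95 to 0.26). The remaining estimates lay between -0.43 (Igfbp3) and 0.27 (Igfbp7).

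**Figure D4:**
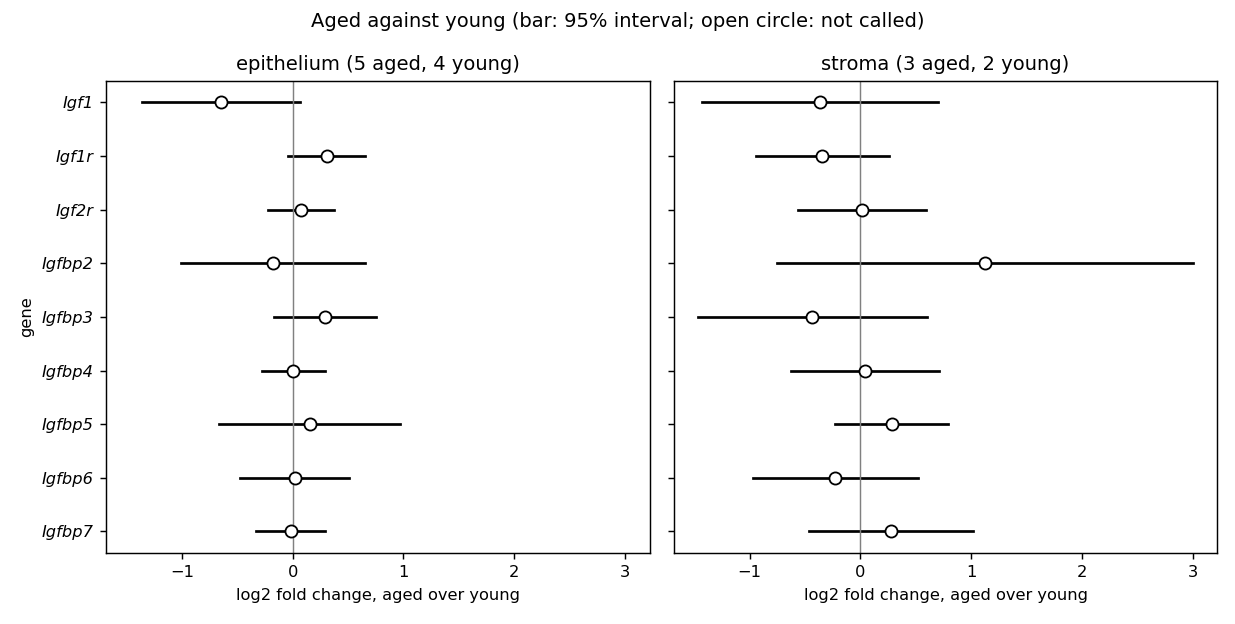
Log2 fold change of aged over young for the 9 genes in epithelium (left, 5 aged and 4 young samples) and stroma (right, 3 aged and 2 young samples), with 95% intervals from edgeR; open circles are genes not called. Every interval crosses 0, and the widest is that of Igfbp2 in stroma, from -0.75 to 3.0004.

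Whether age acted differently in the layers was tested as an interaction in the 5 mice with both layers. Of the 9 genes, 0 were called by edgeR, where 0% of the 22771 genes tested were called, and 0 had an unadjusted p under 0.05 by edgeR or DESeq2. The age estimates had opposite signs in the layers for Igf1r, Igfbp2, Igfbp3, Igfbp6 and Igfbp7. Igf1r had an interaction of 0.54 (95% interval -0.23 to 1.31, edgeR adjusted p = 0.99997) and Igfbp3 of 0.76 (95% interval -0.46 to 1.98). The intervals for Igf1 (-1.79 to 1.12) and Igfbp2 (-2.87 to 1.34) allow differences in either direction.

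The other genes of the pathway were described from 7 lists of 53 genes, of which 47 were tested between the layers. Of these, 8 were called higher and 24 lower in epithelium, and their median log2 fold change was -0.63, against -0.05 over all genes. Over all 16791 genes tested, 26.1% were called higher and 30.1% lower. Among the other ligands and receptors, 2 of the 2 tested genes were lower: Igf2, the second IGF ligand (log2 fold change -2.78, SE 0.71, edgeR adjusted p = 0.00235), and Insr, the insulin receptor (-0.999, edgeR adjusted p = 1.29e-06). Igf2 was scarce, with 0.226 ± 0.195 normalized counts (SD, n = 9) in epithelium and 1.92 ± 2.32 (SD, n = 5) in stroma. Of the other carriers, 1 of 4 could be tested and it was not called. Igfals, the partner of Igfbp3 in the blood, averaged 0.412 in epithelium and 0.594 in stroma.

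Of the 7 proteases that cleave binding proteins and their inhibitors, 1 was higher and 3 were lower in epithelium, where 26.1% and 30.1% of all genes were. Adam28, a metalloprotease reported to cleave IGFBP3, averaged 9.69 in epithelium and 0.737 in stroma (log2 fold change 3.68, SE 0.45, edgeR adjusted p = 7.97e-07). Stc2, an inhibitor of the PAPP-A proteases, averaged 0.340 and 8.34 (-4.50, SE 0.42, edgeR adjusted p = 1.77e-08), and Adam12 had a log2 fold change of -2.62. Pappa, which encodes PAPP-A, averaged 4.24 ± 1.97 in epithelium and 3.12 ± 1.82 in stroma and was not called. Of the 6 genes of growth hormone input to Igf1, 1 was higher and 4 were lower, beside the same shares of all genes. Ghr, the growth hormone receptor, had a log2 fold change of -1.82 (SE 0.17, edgeR adjusted p = 2.01e-08) and Stat5b, its transcription factor, of -1.45. Cish, a feedback inhibitor induced by STAT5, had a log2 fold change of 1.6 (SE 0.28, edgeR adjusted p = 5.92e-05).

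Of the 8 receptor adaptors, 1 was higher and 3 were lower, where 26.1% of all genes were higher and 30.1% lower. Gab1, a docking protein, had a log2 fold change of 1.74 (SE 0.18, edgeR adjusted p = 9.66e-08). Grb14 (-5.41) and Grb10 (-2.83), adaptors that restrain the insulin and IGF1 receptors, were lower. Of the docking protein genes of those receptors, Irs1 averaged 3.03 in epithelium and 21.3 in stroma (log2 fold change -2.78, edgeR adjusted p = 5.21e-11). Irs2 averaged 12.4 in epithelium and 13.2 in stroma and was not called. Of the 16 genes of PI3K, AKT and mTOR, 3 were higher and 8 lower, beside those shares. The catalytic subunit gene Pik3cb averaged 34.2 in epithelium and 3.94 in stroma (log2 fold change 3.11, SE 0.25, edgeR adjusted p = 1.68e-09), and Pdpk1, the kinase that activates AKT, had a log2 fold change of 0.82. Tsc1 (-2.12), an mTOR brake, and Akt2 (-1.95), an AKT kinase of insulin signaling, had the lowest log2 fold changes of that list. Of the 7 FOXO factors and FOXO target genes, 2 were higher and 4 lower, again beside those shares. Foxo3 (1.03) and Sesn1 (0.56) were higher, and Trim63 (-5.77) and Fbxo32 (-3.54), ubiquitin ligases of muscle atrophy, were lower. Both are known as muscle genes, and the skeletal muscle markers in stroma are given above.

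By age, 0 of the 42 pathway genes tested in epithelium, 0 of 49 in stroma and 0 of 50 in the interaction were called. By unadjusted p under 0.05 there was 1 in each, named after its values were seen: Socs2, a STAT5-induced inhibitor, in epithelium (log2 fold change -0.67, edgeR adjusted p = 0.999), and Igf2 in stroma (-2.81, edgeR adjusted p = 0.99996) and in the interaction (3.03, edgeR adjusted p = 0.99997). The share of all genes with such an unadjusted p is not given here. A single stromal sample held 114 of the 200 stromal Igf2 counts, so both Igf2 estimates lean on that sample.

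**Figure D5:**
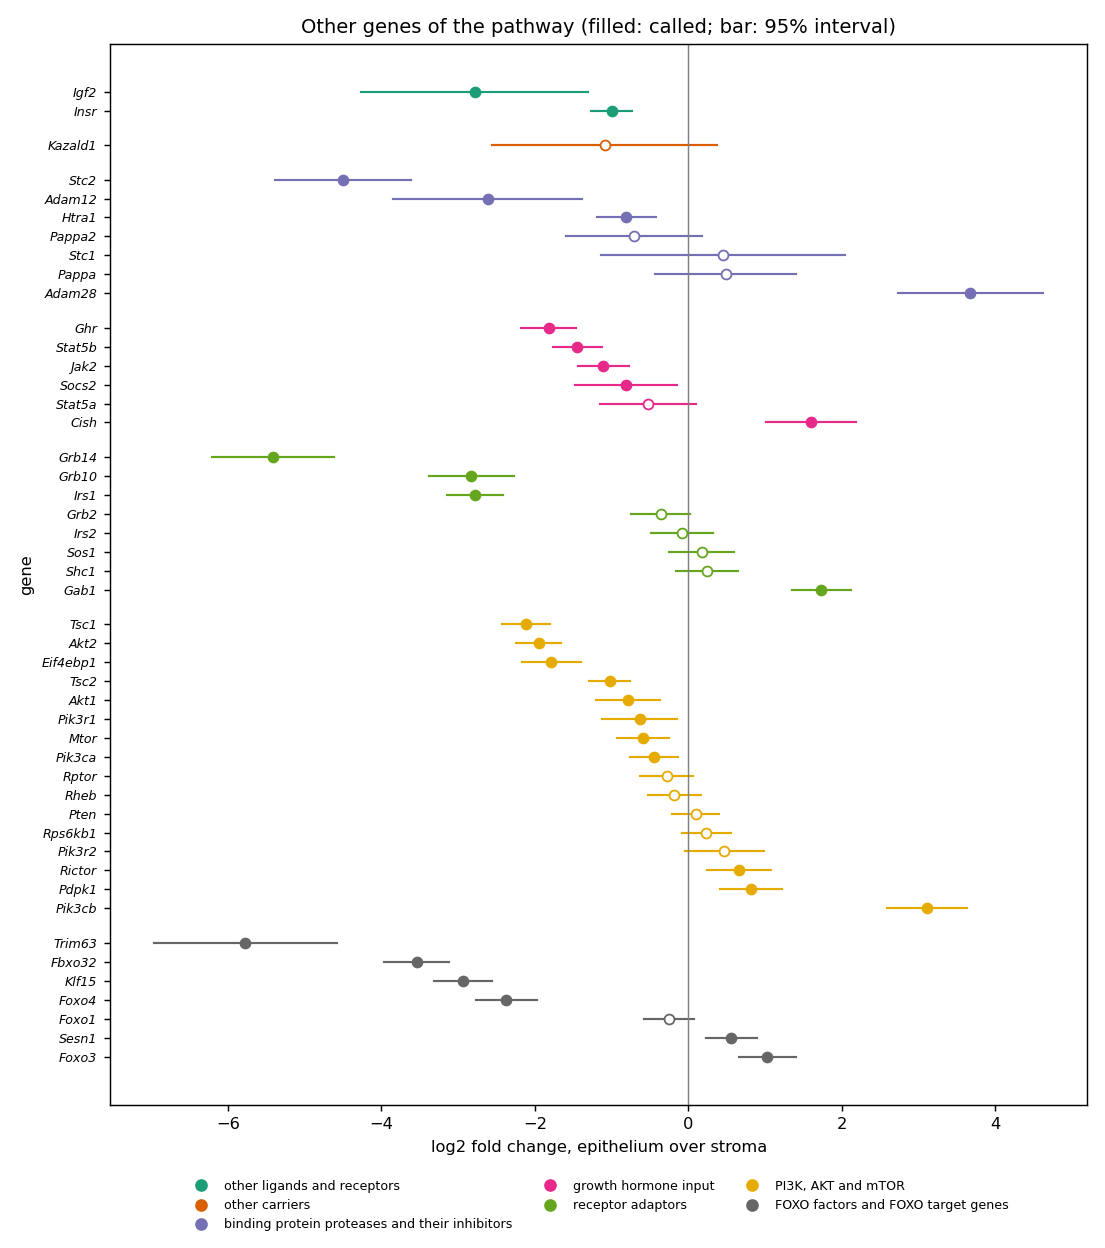
Log2 fold change of epithelium over stroma for the 47 pathway genes tested, grouped in 7 lists by color, with 95% intervals from edgeR over 14 samples; filled circles are called. Of the 47 genes, 24 are called on the lower side and 8 on the higher side, with Adam28 at 3.68 and Trim63 at -5.77.

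For each gene, the 3 genes with the most similar profile over the 14 samples were found among 6847 genes by the root-mean-square difference of centered log2 values. Because the layer sets much of each profile, this is a description. Igfbp5 was nearest to Slc25a4 (0.32), Gys1 (0.32) and Tpm2 (0.35), which encode the muscle form of the mitochondrial ADP/ATP carrier, muscle glycogen synthase and a tropomyosin. Igfbp4 was nearest to Dapk1 (0.15), Acads (0.22) and Vim (0.22), and Igfbp6 to Hexa (0.26), Cavin2 (0.28) and Vim (0.28). Vim encodes vimentin, the intermediate filament of mesenchymal cells. Igf1 was nearest to Cavin2 (0.42), C1ra (0.45) and Sod3 (0.46), and Igfbp7 to Cav1 (0.19), Aifm1 (0.20) and Psap (0.20). Igfbp2 had looser neighbors in Ociad2 (0.49), Shroom3 (0.50) and Mid1ip1 (0.52), which were all higher in epithelium. Igf2r was nearest to Atp13a3 (0.16), Slc38a2 (0.17) and Ubap2 (0.17), and Igfbp3 to Zfp777 (0.31), Prxl2a (0.31) and Eif2ak1 (0.32). Igf1r was nearest to Mkrn2 (0.18), Bace1 (0.22) and the other receptor gene, Igf2r (0.24).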

How the data were processed

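Libraries had been prepared by the authors from oligo(dT)-enriched RNA. Per the methods, forceps were used to take the muscle layer off the epithelium-enriched mucosa. Per the study's methods and the submitters' processing notes, reads were converted with bcl2fastq, aligned to GRCm38 with Rsubread and counted per gene with featureCounts. The annotation release and the strand and multi-mapping settings are not given in the sources used here. The deposited values are raw counts per gene for 14 samples. Counts were tested in R 4.3.3 with edgeR 4.0.16 (TMM, filterByExpr with a minimum count of 10, robust quasi-likelihood), and p-values were adjusted by Benjamini-Hochberg over all genes tested. Layers were compared over 14 samples, age within each layer (in epithelium with a term for whether the mouse code holds a sex letter), and the interaction over the 10 samples of 5 mice. DESeq2 1.42.0 and other filters, scalings and sample sets were alternatives. Exon lengths, the union of exons per gene, came from a GRCm38 annotation. The fits were also run on counts simulated from their own fitted means and dispersions, with samples drawn independently. The outcome is not given here, and such counts cannot show how the fits handle same-mouse samples.

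The genes and lists were chosen with earlier results of these data known. In the pathway lists, 1 gene is not reported here. All 9 genes are named. Of each pathway list, up to 2 genes called with the largest change in each direction are named, with any called by age. Beside them a few others (Igfals, Irs1, Irs2, Pappa and genes with an unadjusted p under 0.05) were named after their values were seen. Samples from the same mouse are paired by their labels. The correlation of the deviations of both layers of a mouse from their group means was 0.0422 to 0.141 over 16791 genes. Same-group samples differed by far more than sampling noise (lowest chi-square per degree of freedom 9.94), so none was counted as a duplicate. A count of 3 corresponds to 0.707 to 1.25 normalized counts in the mice with a sex letter and to at most 0.175 in the other samples. That limit covers counting error only.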

Additional observations from a re-analysis of the deposited data

How the results depend on the processing

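Between the layers, 1 gene called higher and 7 called lower were found under each of the 17 alternatives, except that 8 were lower without mouse O2, where Igfbp3 was added; the range was 7 to 8 over the mice left out in turn. Requiring at least 10 counts in every sample left Igf1 untested and called Igfbp3, so the 7 lower genes then included Igfbp3 in place of Igf1. With the mouse as a replicate block over the 10 paired samples, the log2 fold change was -1.82 for Igf1, -1.07 for Igf1r, -0.86 for Igf2r, 3.12 for Igfbp2, -0.08 for Igfbp3 and -4.00 for Igfbp5, and the block changed no call there or in the interaction. No age or interaction call was made for the 9 genes under any alternative run. The lowest adjusted p was 0.455 for Igfbp2 in epithelium of the 4 mice with a sex letter. Without adjustment, the edgeR p in epithelium was 0.0152 for Igf1 without a filter, 0.0261 for Igf1 and 0.0492 for Igfbp5 in the 5 mice with both layers, and 0.00210 for Igfbp2 in the 4 mice with a sex letter. Leaving out 1 mouse also gave an unadjusted p under 0.05, none called, for Igf1, Igf1r, Igfbp2 or Igfbp3 in epithelium, for Igf1r and Igfbp2 in stroma and for Igfbp2 in the interaction.

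Several small age estimates changed sign, and the cause was not tested. In epithelium these were Igfbp4 without a filter (-0.016) and without the term for the mouse code (-0.00026), Igfbp2 (0.36) and Igfbp6 (-0.085) in the 5 mice with both layers, and Igf2r (-0.029), Igfbp4 (-0.12), Igfbp5 (-0.45) and Igfbp7 (0.082) in the 4 mice with a sex letter. In stroma these were Igf2r with at least 10 counts in every sample (-0.021) and Igf2r (-0.049) and Igfbp4 (-0.049) under upper quartile scaling. In the interaction these were Igf2r (-0.055), Igfbp4 (-0.18) and Igfbp6 (-0.092) without a filter, and Igfbp4 (-0.063) with mitochondrial genes and repeated loci left out, a scaling that moved the median of all genes from 0.01 to -0.11. Leaving out each mouse in turn gave signs of both kinds in epithelium for Igf2r (-0.020 to 0.15), Igfbp2 (-0.57 to 0.025), Igfbp4 (-0.100 to 0.087), Igfbp5 (-0.15 to 0.43), Igfbp6 (-0.16 to 0.34) and Igfbp7 (-0.12 to 0.057). In stroma it did so for Igf1 (-0.95 to 0.57), Igf2r (-0.14 to 0.16), Igfbp4 (-0.18 to 0.26), Igfbp6 (-0.52 to 0.053) and Igfbp7 (-0.012 to 0.58), and in the interaction for Igfbp4 (-0.21 to 0.25), Igfbp5 (-0.0015 to 0.75) and Igfbp6 (-0.19 to 0.55). With Y1 or Y3 left out, the lone young stromal sample is assumed to vary like the aged ones. Depth limits Igf1 most, at 5 to 18 counts in the 4 mice with a sex letter.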

Other observations

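The stromal samples with the most Igf1, O3 (20.5 normalized counts) and Y3 (27.2), were also those with Xist, the RNA of the inactive X chromosome, at 94.2 and 154. The other stromal samples, with Igf1 between 9.44 and 11.4, had Xist at or below 2.37 and the Y-linked gene Ddx3y at 13.8 to 21.2, which was 0 in O3 and Y3. The labels give no sex for these 5 mice. In epithelium the mice with Xist above 100 had Igf1 values of 3.81 (O3), 5.86 (OF5), 7.23 (Y3) and 2.50 (YF5), and the mice with Ddx3y had 3.89 (O1), 2.73 (O2), 1.18 (OM8), 4.00 (Y1) and 6.23 (YM4), so the values overlapped. These are values side by side, noticed in the data and not tested.

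Within epithelium, Igfbp5 was highest in O3 (97.2) and YF5 (81.7), the samples with the highest summed skeletal muscle markers (413 and 671). It was lowest in OM8 (31.8), Y1 (38.4) and YM4 (41.2), where those markers summed to 19.6, 89.9 and 14.2. OF5, with the least muscle signal (8.27), had an Igfbp5 value of 56.2. Y3, with a muscle sum of 235, had an Igfbp5 value of 67.7. That was below the values of O1 (73.3) and O2 (75.5), which had lower muscle sums than Y3. In stroma, O3 had the lowest muscle sum (13034) with the highest Igfbp5 (1213), and O1 the highest sum (19454) with Igfbp5 at 1167. The part of skeletal muscle transcripts in the epithelial Igfbp5 values was not tested.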
